A study of Mus musculus with 16 samples.

Results

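The livers of mice kept on calorie restriction (CR) were compared with the livers of mice kept on a medium-fat diet (MF). The comparison holds the 4 CR and 4 MF arrays of a series of 16, chosen by the diet in their labels alone. All 16 animals were male C57BL/6J mice of 12 months, and each array measured the whole liver RNA of 1 mouse. CR mice received daily portions set to hold 30% less energy than controls ate, and MF mice ate freely a diet with 25% of its energy from fat. The paper reports a measured energy intake of CR mice that lay further below that of controls. The other 8 mice ate a control diet freely (C) or alternated weekly between MF and 40% restriction (INT). They entered the fit to estimate the spread, and C serves as a further level beside the compared diets. Every mouse, whatever its diet, was fasted for 4 h, received by gavage either vehicle (mock) or 160 mg/kg Wy-14643 (Wy), an agonist of the nuclear receptor PPARα, and was fasted for 6 h more before death. Each diet held 1 mock and 1 Wy mouse of high and 1 mock and 1 Wy mouse of low body weight. The weights themselves are not in the labels, and all CR and MF arrays carry 1 plate code. The paper reports lower body weights in CR than in MF mice. A high CR mouse therefore need not weigh as much as a high MF mouse. Matched mice below share treatment and weight class, not weight. Fat content, energy intake, the timing of meals and body weight changed together between the diets, so their effects cannot be told apart.

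The liver makes fatty acids and cholesterol from acetyl-CoA after a meal and switches to fatty acid oxidation and glucose output during fasting. Insulin and the SREBP transcription factors drive the synthetic enzymes, PPARα drives oxidation, and fat that is not exported is kept in droplets coated by dedicated proteins. Rodent liver also differs between the sexes, because the pulsatile growth hormone secretion of males maintains male-biased and restrains female-biased genes. Inflammation of the liver shows as acute phase proteins from hepatocytes and as genes of immune cells and matrix.

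Values are log2 intensities (RMA), and a log2 change is CR minus MF ± the standard error (SE) of a limma fit with diet, treatment and body weight class as terms. Each group held 4 mice. Calls were made at a limit of 0.05 on the p-value adjusted over 14275 genes (Benjamini-Hochberg), and "rose" and "fell" are kept for such genes, seen from CR. The values of 4 mice are given in the order high mock, high Wy, low mock, low Wy. The 8 arrays had medians of 7.07 to 7.19 over these genes and correlated with each other at 0.982 to 0.994. Of the 14275 genes, 826 (5.79%) rose and 981 (6.87%) fell, which is 12.7% in all, and 83 rose and 93 fell by at least 2-fold. Of the 1807 called genes, 1684 differed in 1 direction in 4 of 4 comparisons of matched mice, which describes the same values that made the calls. In 10.9% of all tested genes the CR and MF values did not overlap. The gene lists below were chosen with earlier results of these data known. Their shares beside those of all genes are therefore descriptions and no test. The number called depended most on 3 mice: it was 1057 without the CR high Wy mouse, 1115 without the MF high mock mouse and 1181 without the MF high Wy mouse. The share of called genes that rose was 45.7%, and it was 56.2% (1000 rose, 778 fell) when arrays were centred on their medians. The CR minus MF calls of the genes named below held when each of the 8 arrays was left out in turn unless stated otherwise. In whole liver, fewer cells of a type and less RNA per cell cannot be told apart.

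The defining hepatocyte markers were measured at similar levels in both diets. None of the 9 was called, also at an unadjusted p under 0.05 (limma), and their summed intensity ranged from 70900 to 78100 in CR and from 72700 to 74900 in MF. Albumin (Alb) lay between 13.35 and 13.50 in CR and between 13.40 and 13.42 in MF.

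**Figure D1:**
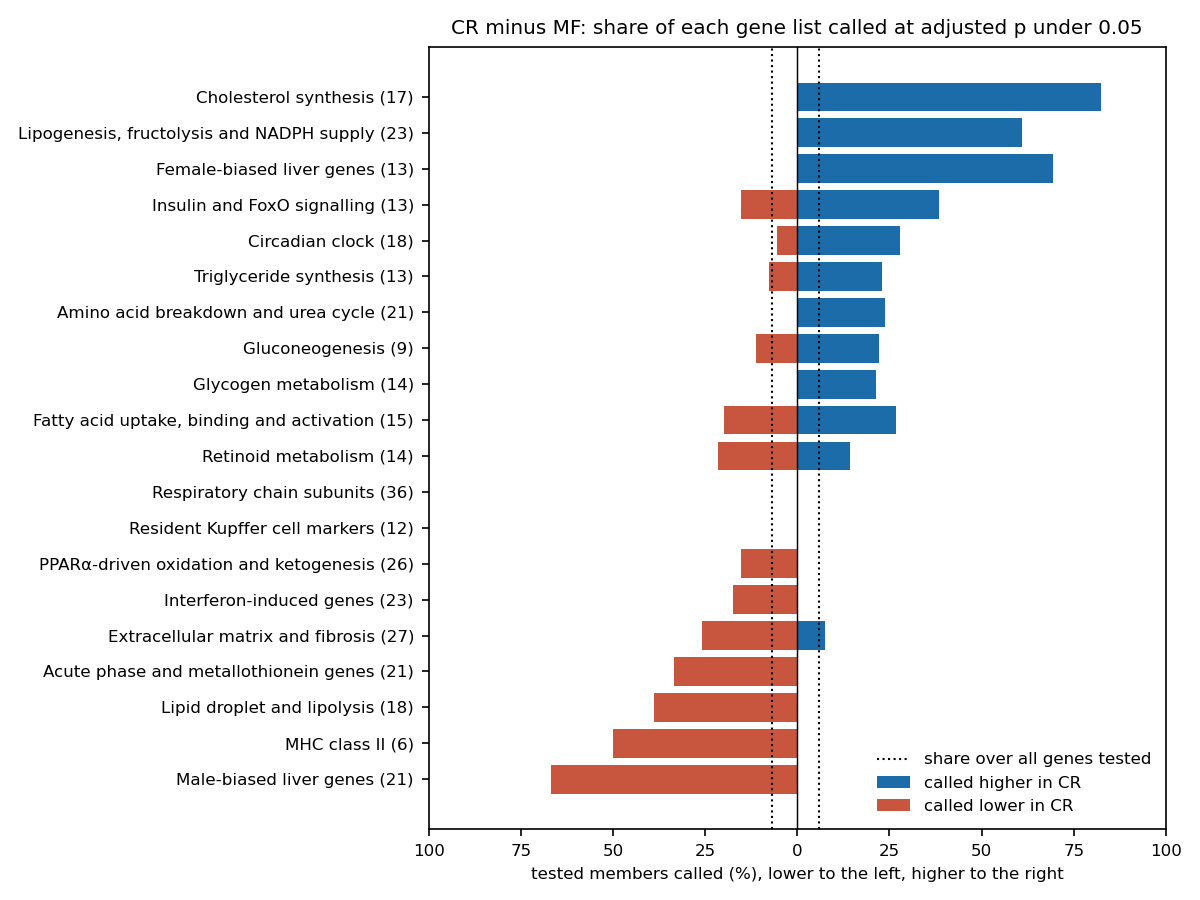
Share of the tested members of 20 gene lists (number tested in parentheses) that were called higher (right) or lower (left) in CR than in MF, in percent of members, with dotted lines at the share over all 14275 genes (5.79% higher, 6.87% lower). Cholesterol synthesis, lipogenesis and female-biased genes reach furthest to the right, male-biased genes furthest to the left, and 2 lists have no bar because no member was called. The lists were chosen with earlier results of these data known.

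Genes of cholesterol synthesis were higher in CR livers. Of 17 tested members 14 rose and none fell, against 5.79% rising over all genes, and their median log2 change was 0.83 against -0.01 for all genes. In 13 of the 17 genes every CR mouse exceeded every MF mouse (10.9% of all genes did not overlap in either direction). Pmvk, the phosphomevalonate kinase, measured 9.66, 9.25, 9.47 and 9.02 in CR and 7.63, 7.67, 7.85 and 7.21 in MF. The lowest CR mouse thus stood above the highest MF mouse, and the gene was 3.38-fold higher (1.76 ± 0.17, adjusted p = 7.47e-05). Lss, which closes squalene epoxide into lanosterol, measured 10.76, 10.48, 10.49 and 10.04 in CR and 8.66, 8.82, 8.95 and 8.35 in MF (1.75 ± 0.18, adjusted p = 8.83e-05). Mvd, the mevalonate diphosphate decarboxylase, rose 3.14-fold (1.65 ± 0.25), Fdps, which makes farnesyl diphosphate, 1.78-fold (0.83 ± 0.11), and Dhcr7, which reduces 7-dehydrocholesterol to cholesterol, 1.66-fold (0.73 ± 0.09). Steps before and after squalene were thus among those that rose. The fitted change of Sc5d, the lathosterol desaturase, was 0.64 ± 0.09. The 3 remaining tested members were not called. The count was 11 without the CR high Wy mouse and also without the MF low Wy mouse, and between 11 and 14 over the 8 arrays left out in turn.

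The start sites of these genes are shown because they moved together. Windows of 250 bases before to 50 bases after a start site (RefSeq, GRCm38.p6) were found for 14 of the 17 genes, and all 14 genes held the letters CCAAT on either strand, the box bound by NF-Y, a partner of SREBP at sterol-regulated promoters. Of all 11283 tested genes with a window 41.6% held them. By windows the shares were 82.4% of 17 and 36.7% of 14265. The letters TCACNCCAC of a sterol regulatory element, searched on both strands, were found in 1 of the 14 genes, Hmgcs1, and in 1.5% of all genes. A match is letters only and no measured site. The 160 bases before the start site follow for the 4 called genes with a window and the smallest p and for Hmgcs1, chosen after its values and sequence were seen. Capitals mark CCAAT or its reverse complement ATTGG and, in Hmgcs1 alone, the sterol element. Pmvk has 2 windows and Dhcr7 has 3, and the window with CCAAT in this stretch is printed.
Pmvk (chr3:89454381-89454540, plus strand): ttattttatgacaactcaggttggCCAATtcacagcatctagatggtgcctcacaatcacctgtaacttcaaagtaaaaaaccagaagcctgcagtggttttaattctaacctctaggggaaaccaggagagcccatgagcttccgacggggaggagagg
Lss (chr10:76531445-76531604, plus strand): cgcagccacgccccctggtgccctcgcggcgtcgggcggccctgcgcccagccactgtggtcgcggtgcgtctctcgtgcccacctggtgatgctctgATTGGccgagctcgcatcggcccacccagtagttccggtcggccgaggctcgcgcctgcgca
Dhcr7 (chr7:143830054-143830213, plus strand): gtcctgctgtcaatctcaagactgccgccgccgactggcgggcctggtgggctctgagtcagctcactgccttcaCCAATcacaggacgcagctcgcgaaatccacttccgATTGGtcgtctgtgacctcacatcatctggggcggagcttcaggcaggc
Sc5d (chr9:42264301-42264460, minus strand): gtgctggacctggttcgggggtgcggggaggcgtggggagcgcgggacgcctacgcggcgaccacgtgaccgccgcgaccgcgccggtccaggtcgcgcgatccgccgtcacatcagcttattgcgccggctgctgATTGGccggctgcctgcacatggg
Hmgcs1 (chr13:119690191-119690350, plus strand): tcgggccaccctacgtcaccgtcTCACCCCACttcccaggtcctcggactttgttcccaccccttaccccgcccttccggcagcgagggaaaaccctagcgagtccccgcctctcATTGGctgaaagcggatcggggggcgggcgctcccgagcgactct

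Hmgcs1, the cytosolic HMG-CoA synthase at the head of the pathway, measured 11.17, 11.27, 10.76 and 10.97 in CR and 10.10, 10.32, 9.63 and 10.31 in MF. It rose 1.94-fold (0.95 ± 0.20, adjusted p = 0.00739), with no overlap between the diets. Among 12 genes of sterol sensing, uptake and export 2 rose and 2 fell, where 12.7% of all genes were called in either direction. Insig1, an SREBP target that retains the SREBP complex in the endoplasmic reticulum, measured 12.05, 11.87, 11.95 and 11.50 in CR and 10.38, 10.05, 11.23 and 9.80 in MF (1.48 ± 0.18, adjusted p = 0.000255). Its relative Insig2 went in the opposite direction, at 10.66, 11.20, 10.59 and 11.59 in CR and 12.06, 12.60, 10.40 and 12.60 in MF (-0.91 ± 0.27, adjusted p = 0.0452). Insig2 overlapped through the MF low mock mouse, and its call was lost without any 1 of 5 mice, with an adjusted p between 0.0778 and 0.151. Stard4, a sterol carrier, rose (0.81 ± 0.22) and Abca1, the cholesterol exporter, fell (-0.43 ± 0.11). Stard4 lost its call without any 1 of 5 mice (adjusted p up to 0.106) and Abca1 without any 1 of 3 (up to 0.0693).

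Fatty acid synthesis and the supply of its carbon and NADPH were higher in CR too. Of 23 tested genes 14 rose, against 5.79% of all genes, and none fell. In 14 of the 23, not all of them called, every CR mouse exceeded every MF mouse, and 10.9% of all genes did not overlap in either direction. The median change was 0.62. Acly, which cleaves citrate into acetyl-CoA, had the largest rise among the named genes of this list, at 12.05, 11.73, 11.58 and 11.81 in CR and 9.57, 9.62, 9.99 and 8.97 in MF. This was a 4.77-fold difference (2.25 ± 0.20, adjusted p = 3.28e-05). Fasn, the fatty acid synthase, measured 12.85, 12.86, 12.34 and 12.61 in CR against 11.31, 11.63, 11.24 and 11.13 in MF (1.34 ± 0.11, adjusted p = 3.1e-05). Acaca, the acetyl-CoA carboxylase of lipogenesis, rose 2.64-fold (1.40 ± 0.16) and the elongase Elovl6 2.47-fold (1.30 ± 0.15). Of the NADPH suppliers, malic enzyme Me1 rose by 1.11 ± 0.13 log2 and Pgd, of the pentose phosphate pathway, by 1.21 ± 0.14. Pnpla3, a lipogenic lipase-like gene named after its values were seen, rose 3.60-fold (1.85 ± 0.26). The list median was 0.68 within high and 0.48 within low body weight. Srebf1, which encodes the lipogenic SREBP and is likewise named after its values were seen, differed by 0.14 ± 0.15 and was not called (adjusted p = 0.614). Scd1, the stearoyl-CoA desaturase, named in the same way, differed by 0.13 ± 0.06 (adjusted p = 0.201) at 13.27 to 13.50 in all 8 mice, near the highest value on the arrays (13.75).

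In triglyceride synthesis 3 of 13 genes rose and 1 fell, against 5.79% and 6.87% of all genes. Gpam, which acylates glycerol-3-phosphate first, measured 12.02, 12.02, 11.37 and 11.63 in CR and 10.49, 10.94, 10.48 and 10.98 in MF (1.03 ± 0.12, adjusted p = 0.000255). Lpin2, a phosphatidate phosphatase, rose by 0.69 ± 0.09 and Lpin1 by 1.05 ± 0.25 log2. Lpin1 lost its call without the MF high mock mouse (0.96, adjusted p = 0.0503). Mogat1, the monoacylglycerol acyltransferase, fell, at 4.72, 5.98, 4.46 and 5.85 in CR and 7.45, 7.51, 5.33 and 6.59 in MF (-1.47 ± 0.34, adjusted p = 0.0127). The diets overlapped for Mogat1 through the MF low mock mouse.

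Of 18 genes of lipid droplets and their breakdown 7 fell in CR, against 6.87% of all genes, and none rose, with a median of -0.36. Within high body weight 9 of them fell (median -0.56) and within low body weight 1 (median -0.19), where 13.9% and 2.64% of all genes were called. In the fit of the 8 arrays alone 3 fell. Fitm1, which partitions fat into droplets, measured 8.38, 9.34, 7.92 and 8.90 in CR and 10.74, 10.93, 10.06 and 10.83 in MF, with no overlap and a 4.02-fold difference (-2.01 ± 0.18, adjusted p = 5e-05). Its level in the 4 C mice, 10.57 ± 0.49 (SD), was near that of MF. Cidea, a droplet fusion protein, measured 4.25, 4.17, 4.36 and 4.37 in CR, which is at the filter of 4.32, and 8.51, 9.62, 4.41 and 6.70 in MF. It was at least 7.83-fold lower in CR with values under the filter raised to it (-3.03 ± 0.71, adjusted p = 0.014), and lost its call without the CR high Wy mouse (-2.39, adjusted p = 0.0503). Cidec, of the same family, measured 6.01, 8.51, 5.82 and 9.17 in CR and 11.05, 11.71, 6.64 and 11.27 in MF (-2.79 ± 0.61, adjusted p = 0.01). The MF low mock mouse lay among the CR mice for Cidec and next to them for Cidea. The lipases Lipe (-0.66 ± 0.13) and Mgll (-0.53 ± 0.11) fell as well, whereas Plin2, the main droplet coat of liver, was not called. The list lost members most without the CR high Wy mouse, when 4 of 18 fell.

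Fatty acid handling was mixed, and over all genes 5.79% rose and 6.87% fell. Of 15 genes of uptake, binding and activation 4 rose and 3 fell. Fabp2, the intestinal fatty acid binding protein, fell 2.03-fold (-1.02 ± 0.13) and the transporter Slc27a4 by 0.66 on the log2 scale (SE 0.14). Fabp5, the epidermal member of that family, rose 2.68-fold (1.42 ± 0.33), the acyl-CoA synthetases Acsl4 (0.61 ± 0.12) and Acsl5 (0.35 ± 0.08) rose, and so did Vldlr, the VLDL receptor (0.68 ± 0.16). Of 26 genes of PPARα-driven oxidation and ketogenesis none rose and 4 fell, with a median of -0.08. The 4 were Cpt1a (-0.32 ± 0.08), the gate of mitochondrial oxidation, Vnn1 (-1.17 ± 0.32), Acaa1a (-0.33 ± 0.10) and Eci2 (-0.27 ± 0.08), and each lost its call without at least 1 mouse, Cpt1a without the MF high mock mouse (-0.28, adjusted p = 0.059). For the other 3 the adjusted p without 1 mouse reached 0.0969 to 0.134. Ppara, the receptor of Wy, measured 11.25, 11.24, 10.93 and 11.49 in CR and 11.35, 11.40, 11.28 and 11.46 in MF (-0.14 ± 0.10, adjusted p = 0.372). Of 15 apolipoprotein and lipoprotein genes 2 rose and 1 fell, among them Tm6sf2, needed for VLDL lipidation (0.53 ± 0.09).

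**Figure D2:**
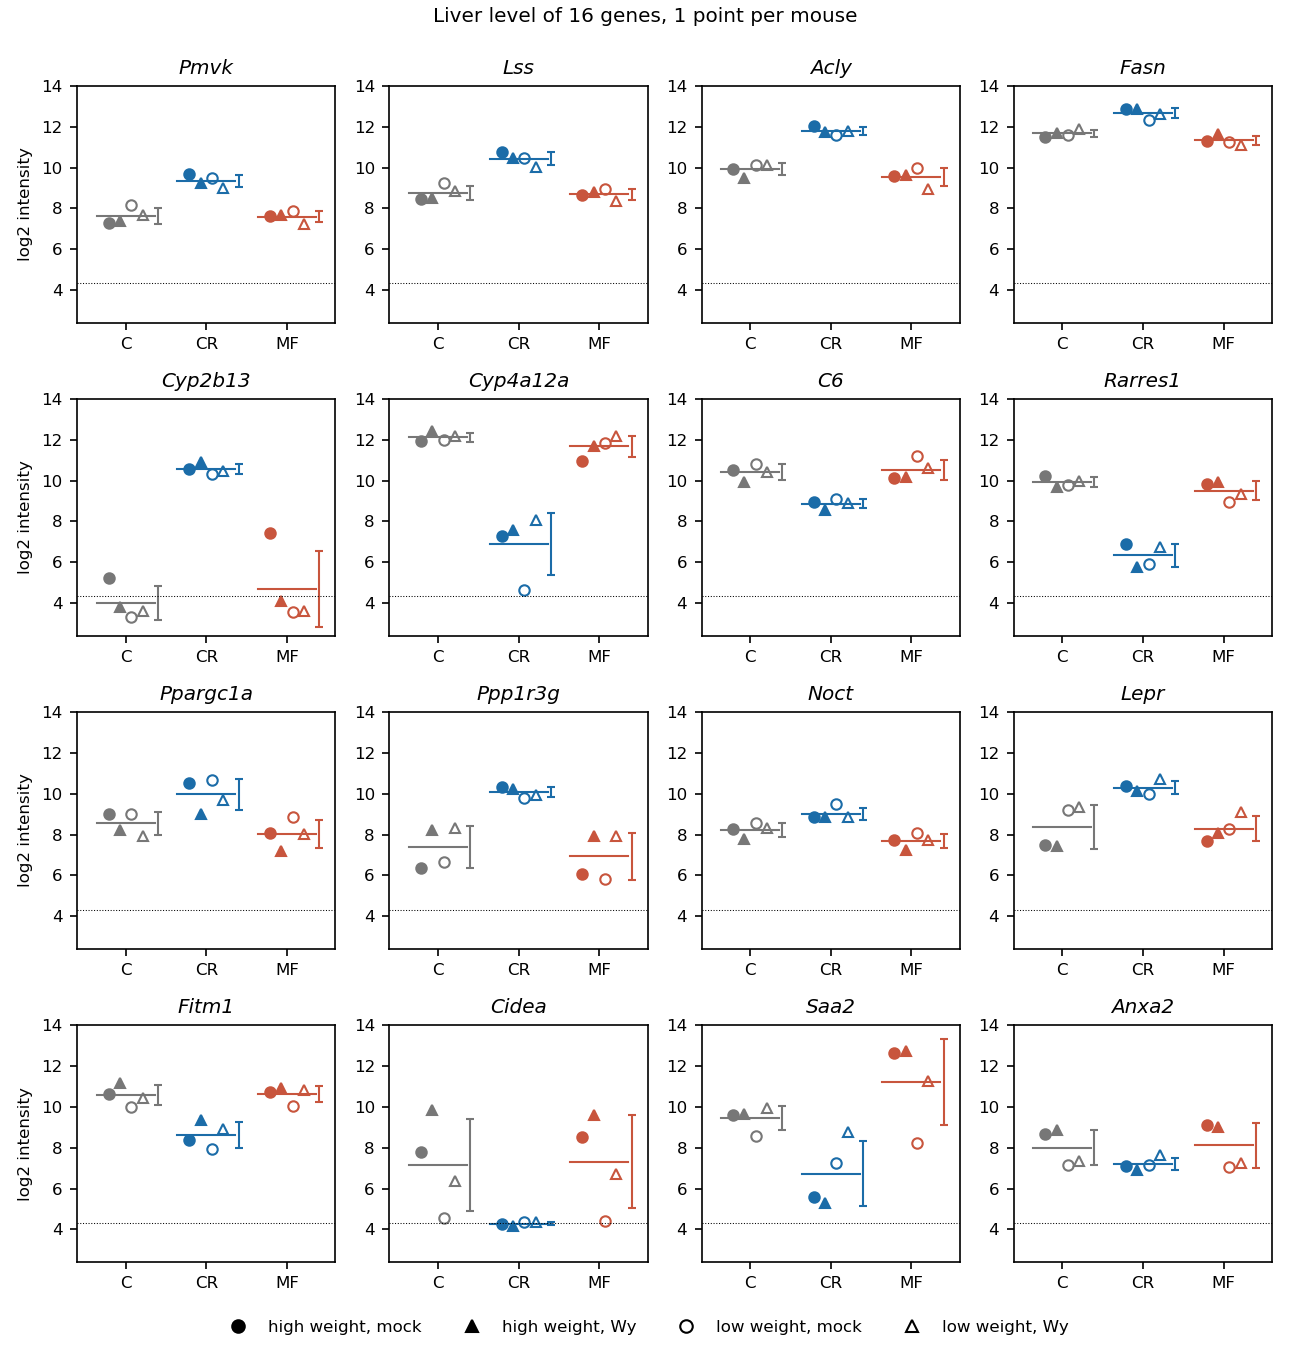
Log2 intensity of 16 genes in the 12 mice of the C, CR and MF diets, 1 point per mouse, filled for high and open for low body weight, circles for mock and triangles for Wy. Horizontal lines are group means, bars beside them ± 1 SD (n = 4), and the dotted line is the filter of 4.32. In Pmvk, Lss, Acly and Fasn the 4 CR mice lie above all C and MF mice, in Fitm1 and Rarres1 below them, while in Anxa2 the 2 high MF mice stand at 9.11 and 9.00 and the others in CR and MF at 7.65 or less.

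The sex-biased genes of the liver shifted in these male mice. Of 21 tested male-biased genes 14 fell in CR, against 6.87% of all genes, and none rose, with a median of -0.91 (12 fell and 1 rose with arrays centred on their medians). Of 13 tested female-biased genes 9 rose, against 5.79% of all genes, and none fell, with a median of 0.77. Within high body weight 5 male-biased genes fell and 1 rose (median -0.51), and within low body weight 10 fell (median -1.25). The female-biased rises numbered 5 within high (median 0.50) and 6 within low (median 1.24). In the fit of the 8 arrays alone 7 male-biased genes fell. The largest rise named in the comparison was a female-biased gene, the cytochrome Cyp2b13, at 10.59, 10.90, 10.33 and 10.46 in CR and 7.45, 4.10, 3.57 and 3.62 in MF. In MF 3 of 4 values lay under the filter, and with these raised to it the gene was at least 44.2-fold higher in CR (fitted change 5.89 ± 0.56, adjusted p = 6.12e-05). The MF high mock mouse alone stood clear of the filter among MF mice, 3.14 below its CR counterpart. Slc22a26, an organic anion transporter, measured 9.18, 10.23, 11.44 and 7.74 in CR and 6.58, 5.71, 5.42 and 5.79 in MF, a 13.7-fold rise (3.77 ± 0.54, adjusted p = 0.000807). Its neighbour in the family, Slc22a27, rose 5.69-fold (2.51 ± 0.34). Abcd2, a peroxisomal transporter (0.70 ± 0.12), the oxygenase Fmo2 (0.92 ± 0.18) and the nuclear factor Tox (0.64 ± 0.13) also rose. Cyp2b9 rose at 12.46, 12.43, 12.33 and 12.30 in CR against 12.11, 11.77, 8.39 and 8.61 in MF (2.16 ± 0.58, adjusted p = 0.0277). Its difference sat mainly in the low body weight mice, and its call was lost without any 1 of the 4 low mice (adjusted p 0.0697 to 0.0812). Of the female-biased genes under the filter, named after their values were seen, Sult3a1 and A1bg exceeded it in 2 CR mice and in no MF mouse. Sult1e1 exceeded it in no CR and 1 MF mouse, and Cyp3a16 in none. Sult3a1 measured 7.00, 2.78, 3.44 and 5.05 in CR and 3.40, 2.98, 2.55 and 2.82 in MF. Tested without the filter, Sult3a1 was not called (1.63, adjusted p = 0.118, limma). Probes of Cyp2b9 and Cyp2b13, of Slc22a26 and Slc22a27, of the 2 Cyp4a12 genes and of the Mup genes can share target sequence, so members of these pairs are not independent measurements.

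On the male side Cyp4a12a, an androgen- and growth hormone-dependent fatty acid hydroxylase, fell furthest, at 7.27, 7.59, 4.66 and 8.07 in CR and 10.97, 11.71, 11.84 and 12.19 in MF. This was a 27.6-fold difference with no overlap (-4.78 ± 0.47, adjusted p = 7.47e-05), and the C mean was 12.14 ± 0.22 (SD, n = 4). Its near copy Cyp4a12b fell 25.1-fold (-4.65 ± 0.50). Mup6, a major urinary protein outside the list but among the 12 deepest falls, measured 9.81, 8.70, 6.09 and 9.57 in CR against 11.60, 11.65, 11.45 and 11.72 in MF (-3.06 ± 0.53, adjusted p = 0.00267). C6, a complement component, had the smallest p of the list, at 8.94, 8.55, 9.10 and 8.93 in CR and 10.14, 10.16, 11.20 and 10.60 in MF (-1.65 ± 0.12, adjusted p = 1.38e-05). Susd4, a complement regulator, fell 5.76-fold (-2.53 ± 0.38), the adipokine Serpina12 by 1.28 ± 0.22 and Cyp2f2 by 0.59 ± 0.10 on the log2 scale. The MF high mock mouse was the lowest of the MF mice in 14 of the 21 male-biased genes. Slco1a1, an organic anion transporter named after its values were seen, measured 7.50 in that mouse and 9.70, 11.49 and 10.80 in the other MF mice, against 8.96, 4.80, 4.93 and 7.91 in CR (-3.22 ± 0.88, adjusted p = 0.0294). Slco1a1 lost its call without any 1 of 5 mice (adjusted p up to 0.105). The male-biased list held 8 called falls without the CR high Wy, the MF high Wy or the MF low Wy mouse, and the female-biased list 6 to 9 rises over all 8 arrays left out in turn.

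**Figure D3:**
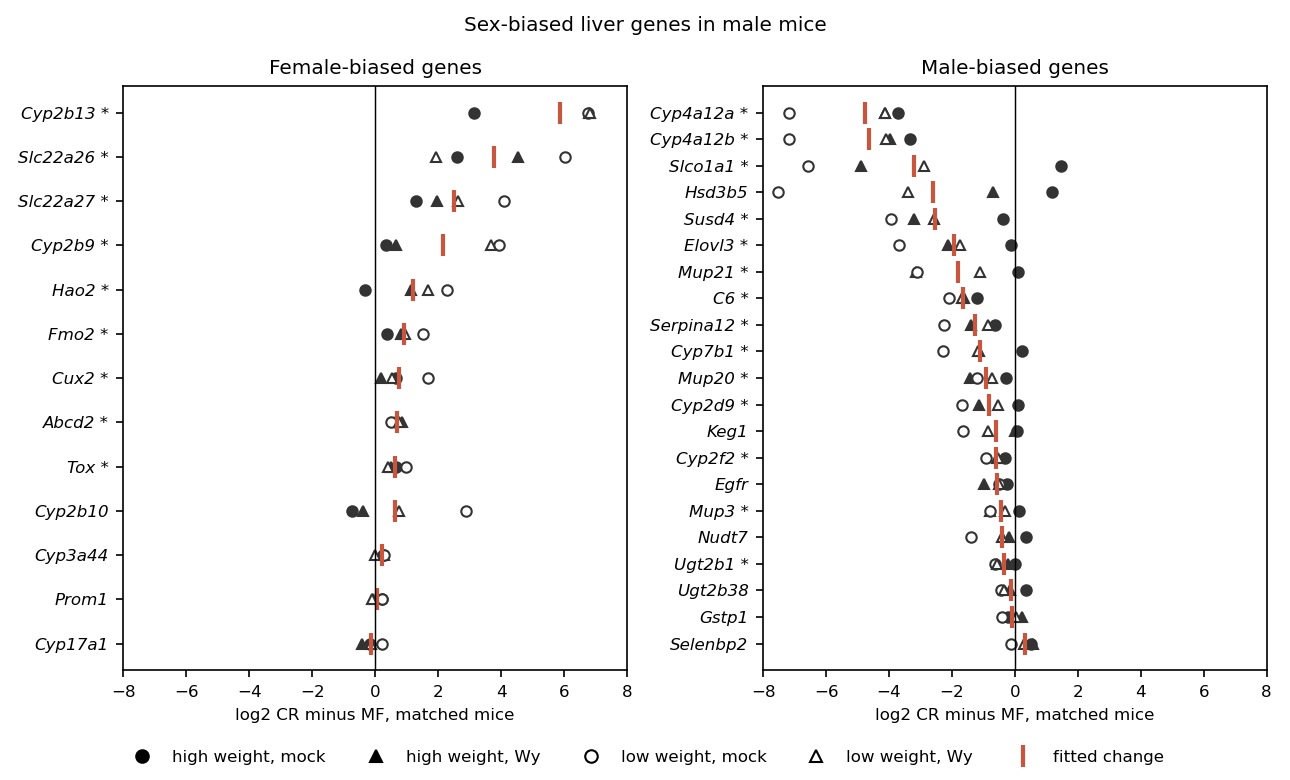
Log2 CR minus MF difference between matched mice of 1 treatment and body weight class (4 symbols per gene) and the fitted change (red bar) for the 13 tested female-biased and 21 tested male-biased genes, with an asterisk at called genes. Fitted changes of called genes all lie to the right on the female-biased side and to the left on the male-biased side, and the high mock pair is the one nearest to 0 in 15 of the 21 male-biased and 5 of the 13 female-biased genes.

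Growth hormone and IGF1 signalling moved less. Of 16 genes 2 rose and 2 fell, against 5.79% and 6.87% of all genes. Stat5a, which carries the growth hormone signal with its close relative Stat5b, fell 1.73-fold (-0.79 ± 0.12, adjusted p = 0.00102), with overlapping groups. Igf1, the main growth factor the liver secretes, measured 11.94, 11.62, 11.91 and 11.72 in CR and 11.98, 12.02, 12.16 and 12.09 in MF. This difference was 1.20-fold (-0.26 ± 0.08, adjusted p = 0.0455), and the call was lost without any 1 of 6 mice (adjusted p 0.0549 to 0.147). Both rises were IGF binding proteins. Igfbp2 measured 11.02, 11.32, 11.02 and 11.18 in CR and 8.96, 9.36, 10.73 and 10.60 in MF (1.22 ± 0.25, adjusted p = 0.00717), and was not called within low body weight (0.44, adjusted p = 0.183). Igfbp1 rose 2.73-fold (1.45 ± 0.42, adjusted p = 0.038) but lost its call without any 1 of 5 mice (adjusted p 0.0607 to 0.0988). Lepr, the leptin receptor, rose 4.03-fold, from 7.67, 8.10, 8.29 and 9.10 in MF to 10.36, 10.14, 9.97 and 10.73 in CR (2.01 ± 0.36, adjusted p = 0.00313). Among 13 secreted liver hormones and their receptors it was the only rise, and Inhbe, the inhibin beta E subunit, the only fall (-1.78 ± 0.25).

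Genes of the fasting response and of glucose output were higher in CR in part, where 5.79% of all genes rose and 6.87% fell. Ppargc1a, the coactivator of gluconeogenesis and mitochondrial genes, measured 10.54, 9.03, 10.67 and 9.72 in CR and 8.07, 7.21, 8.85 and 8.01 in MF, a 3.87-fold rise (1.95 ± 0.18, adjusted p = 5.04e-05). The lowest CR mouse stood above the highest MF mouse. Of 13 genes of insulin and FoxO signalling 5 rose and 2 fell, among them Sesn1, a FoxO target that restrains TOR (0.51 ± 0.10), and Pik3r1, the regulatory subunit of PI3 kinase (-0.72 ± 0.12). The rises in that list numbered 2 without the CR high Wy mouse. In gluconeogenesis Pck1 (0.48 ± 0.08) and G6pc (0.51 ± 0.12), the first and last dedicated enzymes, rose, and Pcx, pyruvate carboxylase, fell (-0.44 ± 0.07), of 9 genes tested. G6pc measured 12.88, 12.87, 13.06 and 12.87 in CR and 12.05, 12.37, 12.60 and 12.63 in MF. Of 21 genes of amino acid breakdown and the urea cycle 5 rose and none fell, but the median was 0.06, and without the MF high mock mouse none was called. Of the 5, Cps1, the entry to the urea cycle, changed by 0.31 ± 0.08 and Tat, tyrosine aminotransferase, by 0.60 ± 0.15, and each lost its call without any 1 of 3 mice (adjusted p up to 0.0692 and 0.0666).

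Glycogen genes were led by 1 phosphatase targeting subunit. Ppp1r3g, which directs protein phosphatase 1 to glycogen after feeding, measured 10.34, 10.25, 9.79 and 9.93 in CR and 6.07, 7.92, 5.82 and 7.92 in MF, an 8.85-fold rise (3.15 ± 0.34, adjusted p = 0.000155). The MF mice given Wy were both at 7.92 and the mock mice at 6.07 and 5.82, while the CR mice lay between 9.79 and 10.34. Pygl, the liver phosphorylase, rose 1.41-fold (0.50 ± 0.12) and lost its call without the MF high mock mouse (0.41, adjusted p = 0.0528). Of the 14 tested genes 3 rose, against 5.79% of all genes, and none fell, and 1 was called without that mouse.

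Clock genes differed within the few afternoon hours, spread over several days, in which the paper reports that the mice were killed. The time of death of each mouse was not a term of the fit. Of 18 genes 5 rose and 1 fell, against 5.79% and 6.87% of all genes. Noct, a deadenylase with a strong daily rhythm, rose 2.49-fold, from 7.73, 7.24, 8.08 and 7.74 in MF to 8.88, 8.85, 9.48 and 8.85 in CR (1.31 ± 0.13, adjusted p = 8.83e-05). Per1, of the negative limb of the clock, rose 1.57-fold (0.65 ± 0.12) and Usp2, a clock-controlled deubiquitinase, 1.63-fold (0.71 ± 0.15). Bhlhe41, a repressor of the same loop, fell from 4.91, 5.30, 5.82 and 5.73 in MF to 4.67, 4.56, 4.20 and 4.48 in CR, of which 1 CR value was under the filter (-0.96 ± 0.18, adjusted p = 0.00445). The rises numbered 3 without any 1 of 5 mice, the 4 of high body weight and the MF low Wy mouse. Nr1d2 and Per3 rose too, but lost their calls without any 1 of 5 and 6 mice (adjusted p up to 0.0741 and 0.128). The phase of the rhythm was not measured, and the daily meal of the CR mice cannot be told apart from restriction. Nr1d1 and Dbp were not analysed here.

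Retinoid, bile acid and detoxification genes changed in several members and in both directions. Of 14 retinoid genes 2 rose and 3 fell, where 12.7% of all genes were called in either direction. Rarres1, a retinoic acid-responsive gene, fell 9.04-fold, from 9.84, 9.93, 8.95 and 9.33 in MF to 6.89, 5.77, 5.93 and 6.75 in CR (-3.18 ± 0.27, adjusted p = 3.1e-05), and its C mean was 9.92 ± 0.25 (SD, n = 4). Rdh11, a retinal reductase, rose 2.58-fold (1.37 ± 0.20) and Aldh1a1, which makes retinoic acid, fell (-0.60 ± 0.08). Cyp26a1, which degrades retinoic acid, measured 6.39, 9.19, 5.70 and 7.05 in CR and 4.81, 4.35, 5.60 and 4.58 in MF (2.25 ± 0.61, adjusted p = 0.0281), and lost its call without any 1 of 4 mice (adjusted p 0.0589 to 0.0833). In bile acid synthesis 1 of 13 genes rose and 3 fell, including Nr1h4, the bile acid receptor FXR (-0.38 ± 0.07), and Scp2, the peroxisomal thiolase (-0.43 ± 0.06). Cyp7a1, the rate-limiting enzyme of that pathway and named after its values were seen, ranged from 9.37 to 11.50 in CR and from 5.05 to 11.64 in MF and was not called (1.51 ± 0.71, adjusted p = 0.189). The basolateral exporter subunit Slc51b rose 2.77-fold (1.47 ± 0.24) and the uptake transporter Slco1a4 2.59-fold (1.37 ± 0.20), of 12 transporters of which 3 rose and 2 fell. Of 19 targets of the xenobiotic receptors CAR and PXR 4 rose and 1 fell, led by Cyp2c39 (1.26 ± 0.14) and Cyp2c38 (1.01 ± 0.14).

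Acute phase genes were lower in CR, and the difference was largest among mice of high body weight. Of 21 genes 7 fell, against 6.87% of all genes, and none rose. The list median was -0.28 over all mice, -0.89 within high and -0.07 within low body weight. Saa2, a serum amyloid A, measured 5.60, 5.28, 7.27 and 8.77 in CR and 12.66, 12.72, 8.24 and 11.26 in MF, a 22.5-fold difference with overlapping groups (-4.49 ± 0.98, adjusted p = 0.00963). Orm3, an orosomucoid, measured 5.81, 5.87, 6.44 and 5.35 in CR and 10.61, 10.00, 6.07 and 7.33 in MF (-2.64 ± 0.57, adjusted p = 0.00963). For both the 2 high MF mice stood furthest from CR and the MF low mock mouse nearest. Lcn2, lipocalin 2, measured 13.02, 13.04, 8.84 and 11.98 in MF and 8.05, 8.36, 9.90 and 8.74 in CR (-2.96 ± 0.80, adjusted p = 0.028), and lost its call without any 1 of 5 mice (adjusted p 0.0779 to 0.101). Saa4, the constitutive serum amyloid A, fell as well (-0.78 ± 0.13, adjusted p = 0.00178), with a change of -0.84 within high and -0.73 within low body weight, where it was not called (adjusted p = 0.0515). Within high body weight 11 of the 21 genes fell and within low none did, where 13.9% and 2.64% of all genes were called. A test of whether the difference depended on weight class (interaction) called 2 of the 21, against 0.616% of all genes. The metallothionein Mt2 changed by -1.87 ± 0.69 and was not called (adjusted p = 0.0915), at 13.25 and 13.27 in the high MF mice and 10.95 and 12.47 in the low ones. Without the MF high Wy mouse 3 of the 21 acute phase genes fell, and 2 in the fit of the 8 arrays alone.

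**Figure D4:**
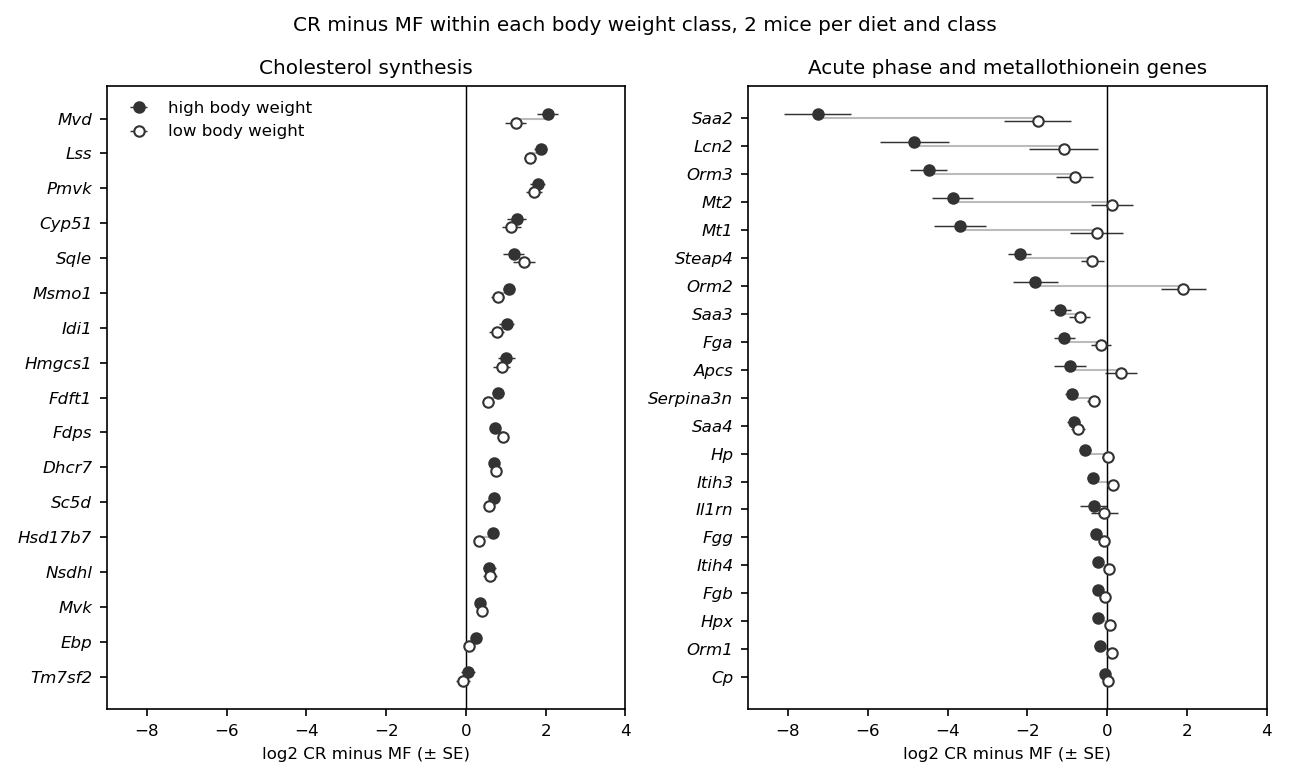
Log2 CR minus MF within mice of high (filled) and of low (open) body weight, 2 mice per diet and class, ± SE of the fit, for the 17 genes of cholesterol synthesis and the 21 acute phase and metallothionein genes. The open and filled points of cholesterol synthesis lie close together (medians 0.81 and 0.77), whereas those of the acute phase genes lie apart for Saa2, Lcn2, Orm3, Mt1 and Mt2.

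Some interferon-induced, matrix and antigen presentation genes fell in CR, and more were called within high than within low body weight. Over all mice 5.79% of all genes rose and 6.87% fell. Of all genes 13.9% were called within high and 2.64% within low. The interaction with weight class was called for 0 of 23 interferon-induced, 2 of 27 matrix and 0 of 6 class II genes, against 0.616% of all genes. Of 23 interferon-induced genes 4 fell and none rose (median -0.46), with 7 falls within high and 1 fall and 1 rise within low body weight. With arrays centred on their medians 4 fell and 1 rose. Iigp1, an immunity-related GTPase, measured 10.33, 10.31, 10.32 and 10.20 in CR and 11.16, 11.02, 10.87 and 10.69 in MF (-0.64 ± 0.09, adjusted p = 0.000601), whereas the list held 2 falls without the CR or the MF high mock mouse. Zbp1, a nucleic acid sensor, fell 2.12-fold (-1.08 ± 0.22). Of 27 matrix and fibrosis genes 7 fell and 2 rose. Within high body weight 16 fell (median -0.50), within low none fell and 1 rose (median 0.04), and in the fit of the 8 arrays alone 1 fell and 1 rose. Mmp2, a gelatinase, measured 6.10, 6.05, 5.98 and 6.07 in CR and 7.27, 7.25, 6.59 and 6.48 in MF (-0.85 ± 0.17, adjusted p = 0.00581), and Col1a1, the main fibrillar collagen chain, fell 1.47-fold (-0.56 ± 0.10). Col14a1 (-0.42 ± 0.08) and Col6a1 (-0.38 ± 0.09) fell too. Postn, periostin (0.79 ± 0.22), and Ccn2, connective tissue growth factor (0.64 ± 0.19), rose, and lost their calls without any 1 of 5 and 6 mice (adjusted p up to 0.108 and 0.129). The falling matrix genes numbered 4 without any 1 of the 4 high body weight mice. Of 6 class II genes 3 fell, 5 within high and none within low body weight. In 5 the groups did not overlap, against 10.9% of all genes. H2-Aa measured 8.55, 9.21, 9.04 and 9.04 in CR and 10.68, 10.24, 9.80 and 9.73 in MF (-1.15 ± 0.30, adjusted p = 0.0235). No class II gene kept its call without any 1 of the 4 high mice, and the adjusted p of H2-Aa was then 0.0503 to 0.0764.

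Markers of non-hepatocytes were read beside these lists, where 5.79% of all genes rose and 6.87% fell. The summed intensity of the class II genes was 1450 to 2310 in CR and 3160 to 6110 in MF. That of 14 markers of lipid-associated and monocyte-derived macrophages was 1120 to 1500 in CR and 1050 to 2610 in MF, highest in the 2 high MF mice. Only Cx3cr1 of these 14 fell (-0.70 ± 0.17, adjusted p = 0.0157), and not without any 1 of 3 mice (adjusted p up to 0.061). Within high body weight 10 of the 14 fell (median -0.97), and within low none (median 0.18). The interaction with weight class was called for 1 of the 14. Of the 12 resident Kupffer cell markers none was called (limma, 1 at an unadjusted p under 0.05), at 4440 to 7530 in CR and 5680 to 8050 in MF, and the CR high mock mouse was the lowest. Among the stellate cell markers 2 of 9 fell (3530 to 4450 in CR, 4240 to 4720 in MF), and among T and NK cell markers 1 of 10 (413 to 520 in CR, 536 to 826 in MF). The stellate list had no call without the MF high mock or the MF high Wy mouse. The 1 call of the T and NK list, Ccl5, was lost without any 1 of 6 mice (adjusted p 0.0753 to 0.154). Of 4 tested neutrophil markers none was called (limma, none at an unadjusted p under 0.05), and S100a8, Retnlg, Cxcr2 and Ngp were under the filter. Of 2 tested erythroid genes Alas2, the first enzyme of heme synthesis in red cells, fell 2.53-fold, from 9.21, 9.50, 10.04 and 9.85 in MF to 8.40, 8.30, 8.33 and 8.20 in CR (-1.34 ± 0.14, adjusted p = 0.000119). The other, Slc4a1, the anion exchanger of red cells, differed by 0.35 ± 0.15 in the opposite direction and was not called (adjusted p = 0.149). Globin genes were not analysed here. The summed intensity of 4 genes listed as adipocyte markers was 4870 to 7740 in CR and 8430 to 9460 in MF. Of these Car3, a carbonic anhydrase, fell (-0.44 ± 0.11), though not without the MF high Wy mouse (adjusted p = 0.057), while Fabp4 and Retn were not called. Of 3 tested pancreatic markers the elastase Cela1 fell (-0.32 ± 0.07, adjusted p = 0.0124), at sums of 86.1 to 94.8 in CR and 97.8 to 111 in MF. Adiponectin and leptin, the defining adipocyte genes, and the pancreatic enzyme genes Ctrb1, Cpb1 and Cel were under the filter. The sum of the adipocyte list is therefore not read as a level of adipocytes. The part of cell composition in the changes of bulk liver was not tested.

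A dependence of the diet difference on body weight class was tested by an interaction term. This was called for 88 genes (0.616%), of which 20 had a more positive and 68 a more negative CR minus MF difference in high than in low mice. Within high mice 1987 genes (13.9%) were called, 798 higher and 1189 lower in CR, and within low mice 377 (2.64%), 205 higher and 172 lower. Of these 207 were called in both classes in 1 direction and 1 in opposite directions. Anxa2, a membrane-binding annexin, measured 9.11 and 9.00 in the high MF mice and 7.06 and 7.26 in the low ones, and 6.93 to 7.65 in the 4 CR mice. Its difference was more negative in high mice (interaction -2.27, adjusted p = 0.00164). Zc3h13, a zinc finger protein, measured 8.53 and 8.88 in high MF mice and at most 7.04 in the others (interaction -1.94, adjusted p = 0.00164). Uap1l1 (-1.23, adjusted p = 0.00187), the monocarboxylate transporter Slc16a6 (-2.11, adjusted p = 0.00892) and the tubulin Tubb6 (-1.26, adjusted p = 0.0181) followed. In the 5 genes the high MF mice were the highest and the CR mice of both classes lay with the low MF mice, apart from Tubb6, whose CR mice reached 7.28. The CR minus MF calls of Zc3h13 and Slc16a6 were lost without any 1 of the 4 high mice (adjusted p up to 0.102 and 0.0541). The number of called interactions rested on few mice: 3 without the MF low mock mouse, 5 without the CR high mock mouse, 9 without the CR low mock mouse, 17 without the CR high Wy mouse and 21 without the MF high mock mouse. In the fit of the 8 arrays alone it was 4.

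The distances between arrays were larger among high than among low mice. The root-mean-square log2 difference over all tested genes between a CR mouse and its MF match was 0.447 in high mock, 0.435 in high Wy, 0.392 in low mock and 0.319 in low Wy. Between the high and the low mouse of a diet it was 0.259 (mock) and 0.212 (Wy) in CR and 0.417 (mock) and 0.296 (Wy) in MF. These 8 distances are descriptions without a test.

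The difference between the diets was not found to depend on Wy. The limma interaction called 0 of 14275 genes, with 601 at an unadjusted p under 0.05 and a smallest adjusted p of 0.998, while within mock mice 238 and within Wy mice 315 genes were called. The smallest p were those of Zfp14, Btg1, Il33, Gpatch3 and Ppp1r3g. For Ppp1r3g the CR minus MF difference was 4.12 with mock and 2.17 with Wy (limma interaction -1.95 ± 0.40, unadjusted p = 0.00058). For Btg1, an antiproliferative factor, it was 0.80 with mock and 0.11 with Wy. With 2 mice per diet and treatment a missing call does not show that the differences were alike.

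Control mice gave a further level. In the same fit 0 of 14275 genes were called between MF and C (limma, smallest adjusted p of 1, 628 genes at an unadjusted p under 0.05). The smallest p were those of Bmp7 (-0.44 ± 0.09), Noct (-0.53 ± 0.13) and Tnrc6c (-0.24 ± 0.06), lower in MF, and of Golm2 (0.30 ± 0.07), Iigp1 (0.36 ± 0.09) and Lrig2 (0.36 ± 0.09), higher in MF. The C means of Pmvk (7.63 ± 0.41, SD, n = 4), Acly (9.92 ± 0.30), Fasn (11.68 ± 0.17), Cyp2b13 (4.00 ± 0.84), C6 (10.43 ± 0.38) and Fitm1 (10.57 ± 0.49) stood beside MF means of 7.59, 9.54, 11.33, 4.69, 10.53 and 10.64 and CR means of 9.35, 11.79, 12.67, 10.57, 8.88 and 8.63. The MF mice are shared by both comparisons, and CR was not tested against C.

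Several lists held no called member. None of 36 respiratory chain subunits was called (limma, 4 at an unadjusted p under 0.05, median 0.03), nor any of 16 cell cycle genes (3 at an unadjusted p under 0.05, median -0.07).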

How the data were processed

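Whole liver RNA of 16 mice was hybridised to Affymetrix Mouse Gene 1.1 ST arrays, 1 array per mouse. The authors deposited log2 intensities made with RMA (robust multi-array average), which corrects background, gives all arrays 1 distribution and summarises probes per transcript cluster. The tool is named in the submitters' processing notes, with no version. RMA removes differences that shift all genes of an array. The precision is limited by the number of arrays.

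From these values, 21218 of 35556 clusters carried 1 gene symbol in the platform annotation, 1881 carried several and 12457 none, which gave 18820 genes. Where a gene had several clusters (1386 genes), the one with the highest mean over all arrays was taken. A gene was tested when its intensity exceeded 20 (4.32 on the log2 scale) on at least 5 arrays, which left 14275 genes. The 4545 others were not tested. Diet, treatment and body weight class were fitted additively over all 16 arrays with limma 3.58.1 in R 4.3.3, and p-values were adjusted by the Benjamini-Hochberg method over all tested genes. Differences between body weight classes and between treatments came from fits with that interaction. The code was tested on simulated data. Bounds ("at least") raise each value under the filter to it.

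Genes were named by rule: the 12 largest positive and 12 largest negative changes that were called and had 1 sign in 4 of 4 matched comparisons, per list up to 6 called genes with the smallest p and up to 3 against the majority (up to 3 with the smallest p where fewer than 2 were called), fixed panel and marker genes, the 5 smallest p of each interaction and the 3 smallest p in each direction of MF minus C. Exceptions are marked. Members and lists (52 lists, 671 tested genes) were chosen with earlier results of these data known, and several droplet, inflammation and macrophage genes were picked by the study on mice of the same feeding experiment. Alternatives were the filter, the cluster rule, centring, a moderated trend with robust variances, the arrays in the fit, random and fixed blocks and leaving out each array.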

Additional observations from a re-analysis of the deposited data

Results flagged for a closer look

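Single mice stood apart from the other 3 of their diet in 21 of 474 groups of 4 values (4.43%), where chance gives about 1 in 20 by Dixon's test. In MF these were the high mock mouse for Cyp2b13 (7.45), Anxa6 (10.33) and Adgre1 (8.34), the high Wy mouse for Pik3r1 (11.29), Krt7 (5.45) and Pnpla3 (6.87), the low mock mouse for Cidec (6.64), Cpt1a (12.20) and Bmp7 (6.46), and the low Wy mouse for Reln (9.52). In CR they were the high mock mouse for Per3 (8.93), Timd4 (6.91), Ccl6 (6.96), Adgre1 (7.41), Trem2 (6.17) and Clec4g (11.25), the low mock mouse for G6pc (13.06) and Noct (9.48), and the low Wy mouse for Abcd2 (9.56), Iigp1 (10.20) and Ccl2 (5.64). Of the 4 immune cell genes among the CR high mock values Timd4, Ccl6 and Adgre1 were low. Trem2 was flagged as high, but by little, at 6.17 against a nearest value of 6.11.

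The CR minus MF difference depended on body weight class in 12 named genes, by the limma interaction. It was more negative in high mice for Anxa2 (-2.27, adjusted p = 0.00164), Zc3h13 (-1.94, adjusted p = 0.00164), Uap1l1 (-1.23, adjusted p = 0.00187), Slc16a6 (-2.11, adjusted p = 0.00892), Tubb6 (-1.26, adjusted p = 0.0181), the chemokine Cxcl1 (-2.61, adjusted p = 0.0255), the protease inhibitor Timp1 (-1.18, adjusted p = 0.0419), Orm3 (-3.66, adjusted p = 0.0419), Cyp2b9 (-3.31, adjusted p = 0.0421) and Mt2 (-3.98, adjusted p = 0.0443). It was more positive in high mice for Igfbp2 (1.57, adjusted p = 0.0221) and Bhlhe41 (0.94, adjusted p = 0.0489). Each class holds 2 mice per diet.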

How the results depend on the processing

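The number of genes called between CR and MF was 1807. It was 670 in a fit of the 8 arrays alone, which has fewer residual degrees of freedom, 377 within low and 1987 within high body weight, 238 within mock and 315 within Wy, and 176 with a 2-fold minimum. Over the 8 arrays left out in turn it ranged from 1057 to 1975. The other filters, the cluster mean, the centring, the trend and the second plate left out kept it within 1.5 times. The replicate numbers used here stand for treatment and weight class. Matched CR and MF mice deviated together with correlations of 0.0457 (high mock), 0.356, 0.335 and 0.482, so the numbers were not taken to pair the mice. With a treatment-by-class replicate block the count was 1691. With the pair of mock and Wy mouse of 1 diet and class as a random replicate block it was 1471. The difference between weight classes was called for 88 genes, for 4 in the fit of the 8 arrays and for 3 to 122 with 1 array left out. The difference between Wy and mock was called for 0 genes, for 0 with the pair as a fixed replicate block, and for 0 to 1 with 1 array left out. No gene was called between MF and C in any setting run (limma, 628 at an unadjusted p under 0.05). Of 167 named genes that were called, 91 kept the call without each array in turn. Among the 237 named genes no call reversed its direction in any of 21 settings. The sign of the change did differ between settings for some genes that were not called. Mt2 ranged from -3.87 to 0.12 and Srebf1 from -0.21 to 0.49. The cause of these changes was not tested. The precision is limited by 1 mouse per combination of diet, treatment and class.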

Other observations

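Stress and turnover genes not described above changed in few members. Over all genes 12.7% were called in either direction, and the counts below lie near that share and are descriptions. Of 18 genes of endoplasmic reticulum chaperones and their control 2 fell and 1 rose, and Xbp1, a transcription factor of that response, fell 1.76-fold (-0.81 ± 0.14, adjusted p = 0.00252, limma). Of 15 p53 targets and growth arrest genes 2 fell and 1 rose, led by Gadd45a (adjusted p = 0.00712). Of 13 autophagy and lysosome genes 2 fell and none rose, among them Atg7, which starts the conjugation of autophagosome proteins (-0.50 ± 0.09, adjusted p = 0.00267). In the integrated stress response Chac1, which degrades glutathione, was the 1 fall among 14 genes (-1.52 ± 0.36, adjusted p = 0.0144), and no member was called without the CR high Wy mouse. Of 20 NRF2 targets and glutathione enzymes 3 rose and none fell, and none was called without the CR high Wy mouse.

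Some of the furthest changes lay outside the lists. Sytl5, a Rab27 effector, rose 8.40-fold, from 5.77, 5.77, 4.71 and 4.56 in MF to 8.41, 8.23, 8.80 and 7.64 in CR (3.07 ± 0.27, adjusted p = 3.28e-05). Chrna4, a nicotinic receptor subunit, rose 6.89-fold, from 7.19, 7.58, 7.60 and 6.67 in MF to 10.77, 9.82, 10.20 and 9.40 in CR (2.79 ± 0.45, adjusted p = 0.00192). In both genes every CR mouse exceeded every MF mouse. Slc8a1, the sodium-calcium exchanger, fell 4.75-fold (-2.25 ± 0.42, adjusted p = 0.00403), and Scara5, a ferritin receptor, 4.36-fold (-2.12 ± 0.43, adjusted p = 0.00648).

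The study chose 3 panels of 4 genes on mice of the same feeding experiment, so their directions are no independent evidence. Of all genes 6.87% fell. Of the panel for droplet formation 3 genes fell, of that for inflammation and fibrosis 2 fell, and of that for macrophages and monocytes none was called (limma, none at an unadjusted p under 0.05).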
